A study of Mus musculus with 32 samples.

Results

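The difference between the effect of the Pparg KnockOut label in the cold and its effect at room temperature was measured for 14064 genes on 16 of the 32 mouse one-colour Agilent arrays of the series, the 16 whose titles place them in vivo. For each gene, the quantity is the KnockOut-minus-control difference among cold-exposed samples minus the KnockOut-minus-control difference among room-temperature samples, and is called the interaction here. The 4 groups were KnockOut samples after cold exposure, Pparg control samples after cold exposure, KnockOut samples at room temperature and Pparg control samples at room temperature, each with 4 arrays. All 4 groups carry the strain label C57Bl/6 and the cell type label preadipocytes, and the labels name no other allele or agent. The labels give neither the driver of the deletion, the age of the animals, the length of the cold exposure nor whether the 4 arrays of a group come from separate animals. The p-values therefore cover only the scatter among arrays of a group, part of which may be technical.

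Levels are log2 background-subtracted signals minus the 75th percentile of the same array, so a level of 0 is the 75th percentile of that array and 1 unit is a doubling. A positive interaction means that the KnockOut effect was more positive, or less negative, in the cold than at room temperature. Effects and interactions were tested with limma across all 14064 genes with Benjamini-Hochberg adjustment, and a gene passed at an adjusted p under 0.05. A spot is called well above background where the scanner software flagged it so.

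PPARG is a nuclear receptor that binds DNA with RXR and drives the genes of fat storage and adipocyte identity. Brown adipocytes burn fatty acids in mitochondria uncoupled by UCP1. In the cold, noradrenaline acts through cyclic AMP to start lipolysis, the supply of fatty acids and, over longer times, the transcription of thermogenic genes. Glycerol kinase, encoded by Gk and named in the series title, returns glycerol from lipolysis to the synthesis of triglyceride.

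The RNA did not match the preadipocyte label alone. All 5 of 5 mature adipocyte markers (Adipoq, Plin1, Cidec, Fabp4 and Lipe) were well above background on all 16 arrays, as were 5 of 6 brown adipocyte markers and 6 of 6 preadipocyte markers. Macrophage (4 of 4 tested) and endothelial (3 of 3) markers were also detected on all 16 arrays, against 0 of 5 skeletal muscle markers. Each sample is therefore a mixture, in which fewer cells of a type and less RNA per cell cannot be told apart. Between 50.7% and 60.3% of probes were well above background on each array, no spot was saturated, and the 75th percentile of signal was 297 to 316 in cold KnockOut arrays, 277 to 359 in cold control arrays, 499 to 605 in room-temperature KnockOut arrays and 293 to 408 in room-temperature control arrays. The cold arrays lay on slides 5 and 6 and the room-temperature arrays on slides 1 and 2, scanned on another day, so temperature and slide cannot be told apart. Each of the 4 slides held both genotypes, and the KnockOut effect was therefore also read within each slide.

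The gene named by the genotype went against its label. Pparg had levels of 7.96, 7.93, 8.06 and 7.90 in cold arrays labelled KnockOut, against 5.98, 6.4, 5.28 and 5.67 in cold control arrays. At room temperature Pparg had levels of 7.5, 7.53, 7.43 and 7.37 in arrays labelled KnockOut, against 5.52, 5.26, 5.47 and 5.29 in control arrays. The arrays labelled KnockOut were thus higher for this probe without overlap at both temperatures, by 2.13 ± 0.17 log2 units in the cold and 2.07 ± 0.17 at room temperature (limma, SE; adjusted p = 1e-06 and 9.8e-07), with an exact two-sided permutation p of 0.0286 at each, the smallest that 4 against 4 arrays allow. Where this probe lies relative to the deleted part of the gene is not given in the sources used here, so the probe does not check the deletion. Every direction given here is that of the arrays labelled KnockOut against the arrays labelled control. The interaction for Pparg was 0.06 with a 95% interval of -0.47 to 0.58 (adjusted p = 0.908).

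Neither Gk nor Ucp1 passed for the interaction. Ucp1, the uncoupling protein of brown fat, had levels of 8.59, 8.58, 7.96 and 7.34 in cold KnockOut arrays, against 9.20, 8.99, 9.13 and 9.20 in cold control arrays. At room temperature its levels were 9.31, 9.39, 8.91 and 8.98 in KnockOut arrays, against 10.02, 9.84, 10.23 and 10.57 in control arrays. Ucp1 fell in the KnockOut arrays without overlap at both temperatures, by 1.01 log2 units in the cold and 1.02 at room temperature (adjusted p = 0.0043 and 0.0045; exact permutation p = 0.0286 each). Its interaction was 0.01 with a 95% interval of -0.72 to 0.73, so a difference of up to about that size between temperatures was not detectable. Gk had levels of 0.89, 0.78, -1.03 and -1.12 in cold KnockOut arrays, against 2.02, 1.55, -0.17 and 0.03 in cold control arrays. The first 2 arrays of each cold group, on slide 5, were the high ones, and the groups overlapped. At room temperature Gk had levels of 1.98, 2.52, 1.95 and 2.66 in KnockOut arrays, against 3.09, 2.62, 3.23 and 3.45 in control arrays. Without regard to slide, the KnockOut effect on Gk was -0.98 in the cold (adjusted p = 0.16; exact permutation p = 0.229) and -0.82 at room temperature (adjusted p = 0.25; exact permutation p = 0.0571). Within slides it was -0.95 on slide 5 and -1.01 on slide 6 in the cold, and -0.55 on slide 1 and -1.09 on slide 2 at room temperature. The KnockOut and control arrays of a slide did not overlap on slides 5, 6 and 2 and overlapped on slide 1. With slide as a block in limma, Gk passed as lower at both temperatures (adjusted p = 0.0014 in the cold and 0.0044 at room temperature). Its interaction of -0.16 had a 95% interval of -1.77 to 1.45 and did not pass with the slide block either (adjusted p = 0.71).

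The interaction passed for 1875 of 14064 genes (13.3%), with 862 higher (6.13%) and 1013 lower (7.2%). These 6.13% and 7.2% are the background for each count of genes that passed for the interaction in a list below. The KnockOut effect itself passed for 5384 genes in the cold (38.3%; 2244 higher, 16%, and 3140 lower, 22.3%) and for 4902 at room temperature (34.9%; 2128 higher, 15.1%, and 2774 lower, 19.7%). Scaling each array to its median in place of its 75th percentile moved the median interaction of all genes to -0.17, against -0.007, and gave 1905 genes with 477 higher (25% of the calls, against 46%) and 1428 lower. The same scaling gave 2430 higher and 1942 lower for the KnockOut effect at room temperature. Normexp background correction gave 600 genes, 197 higher and 403 lower. Cold slide 5 alone gave 365 higher and 336 lower, and cold slide 6 alone 1261 higher and 1828 lower, each against all room-temperature arrays.

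Among the 1875 genes, the KnockOut effect had opposite signs at the 2 temperatures in 1147 (61.2%), whether or not either effect passed. It passed at both with opposite signs in 163 (8.69%). The 1875 genes were chosen because their 2 effects differed, so a high share of opposite signs follows in part from that choice. The share over all genes was not counted. The effect passed in the cold and not at room temperature in 745 genes (39.7%), and at room temperature and not in the cold in 700 (37.3%). It passed at both with the same sign in 95 genes whose effect was larger in the cold and in 135 whose effect was smaller in the cold. Across all 14064 genes the cold and room-temperature effects had a Pearson r of 0.548, while effects on cold slides 5 and 6 had an r of 0.600 and those on room-temperature slides 1 and 2 an r of 0.773. Genes are not independent replicates, and these correlations are descriptions.

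**Figure D1:**
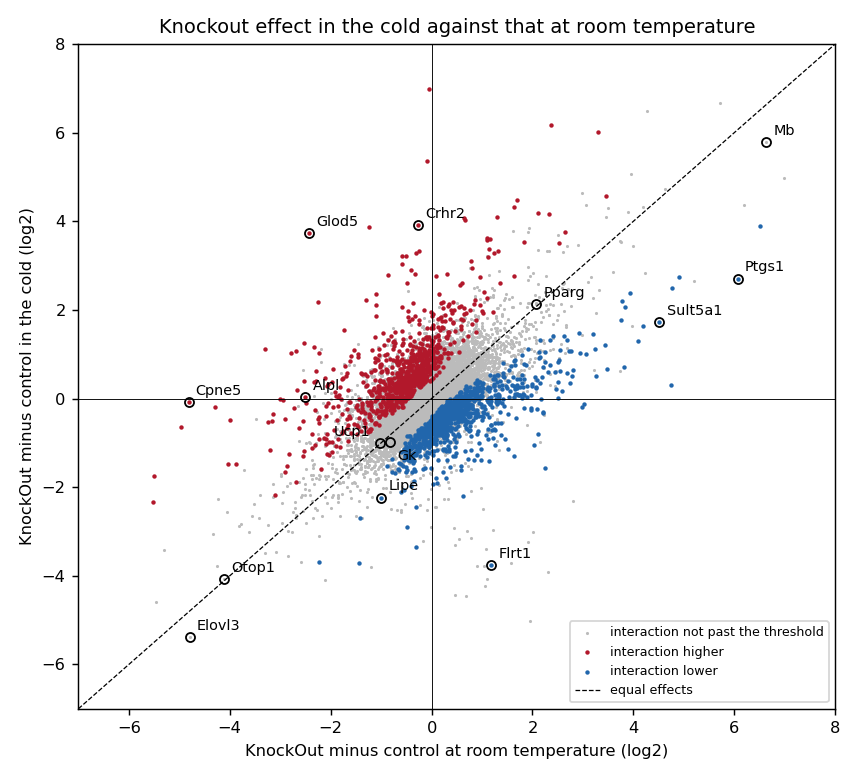
KnockOut effect in the cold (vertical axis) against that at room temperature (horizontal axis), both as KnockOut minus control in log2 units, for 14064 genes; each point is a gene, with the 1875 genes past the threshold for the interaction coloured by direction. Pparg, Gk and Ucp1 lie close to the diagonal of equal effects, while the coloured genes lie off it, as their choice by the interaction requires. Of the 862 higher ones, 545 had a positive cold effect and a negative room-temperature effect, whether or not either effect passed.

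The 10 largest positive interactions, among genes well above background on at least 3 of 4 arrays of each group, ran from 3.46 to 6.17 log2 units. Glod5, a glyoxalase domain protein, had levels of 1.70, 0.72, -0.42 and -0.66 in cold KnockOut arrays, against -1.79, -3.48, -4.15 and -4.16 in cold control arrays. At room temperature Glod5 had levels of -2.77, -2.49, -2.37 and -2.98 in KnockOut arrays, against -1.85, 0.76, -0.57 and 0.80 in control arrays. The groups did not overlap at either temperature and their order was turned, with an effect of 3.73 ± 0.66 in the cold and -2.44 ± 0.66 at room temperature, and an interaction of 6.17 (95% interval 4.18 to 8.15; adjusted p = 0.00117). Arc, an activity-induced immediate-early gene, had levels of 0.02, 0.41, 0.27 and -0.23 in cold KnockOut arrays, against -2.62, -1.18, -2.21 and -2.43 in cold control arrays. Arc at room temperature had levels of -3.38, -3.92, -3.41 and -3.21 in KnockOut arrays, against -2.20, -2.10, -2.17 and -2.26 in control arrays. Here too the order of the genotypes turned without overlap at either temperature, and the interaction was 3.53 ± 0.36 (adjusted p = 9.55e-05).

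Cpne5, a copine of the calcium-dependent phospholipid-binding family, had levels of -2.73, -2.63, -3.30 and -3.40 in cold KnockOut arrays, against -2.42, -2.56, -3.66 and -3.11 in cold control arrays. At room temperature its levels were -0.97, -1.75, -1.82 and -1.90 in KnockOut arrays, against 2.69, 3.36, 3.59 and 3.19 in control arrays. The cold groups overlapped and sat below both room-temperature groups, so the interaction of 4.74 ± 0.42 (adjusted p = 1.88e-05) rests on a room-temperature effect of -4.82. Usp2, a ubiquitin-specific protease whose transcript cycles with the clock in other tissues, had levels of 3.75, 2.80, 3.67 and 3.55 in cold KnockOut arrays, against 2.77, 2.95, 2.37 and 1.05 in cold control arrays. At room temperature Usp2 had levels of 1.0, 1.09, 0.97 and 1.33 in KnockOut arrays, against 3.65, 3.15, 3.43 and 3.46 in control arrays. In KnockOut arrays it rose in the cold with overlap (1.16) and fell at room temperature without overlap (-2.33), for an interaction of 3.48 (adjusted p = 0.000549).

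A further 5 genes were Crhr2, Fgf18, Scn4b, Ppp1r1b and Mfsd2a. Their positive interactions came with a KnockOut effect that passed in the cold and not at room temperature. Crhr2, a receptor for urocortins, had levels of -0.18, 1.25, 2.19 and 2.26 in cold KnockOut arrays and between -3.87 and -1.52 in cold control arrays, while all 8 room-temperature arrays lay between -3.82 and -3.05. Fgf18, a fibroblast growth factor, had levels of 2.84, 2.70, 0.92 and 1.27 in cold KnockOut arrays and between -1.92 and -0.71 in cold control arrays, with all 8 room-temperature arrays between -0.54 and 0.55. Neither pair of cold groups overlapped, and the interactions were 4.17 for Crhr2 and 3.58 for Fgf18 (adjusted p = 0.00418 and 0.00192). Scn4b, an auxiliary subunit of voltage-gated sodium channels, and Ppp1r1b, an inhibitor of protein phosphatase 1 controlled by protein kinase A, had interactions of 5.11 and 3.65 (adjusted p = 0.0218 and 0.0018), each with 3 of 4 cold control arrays well above background. Mal, a membrane proteolipid of apical transport, was not one of these 5. In KnockOut arrays Mal rose by 2.17 in the cold and fell by 2.25 at room temperature, for an interaction of 4.42 (adjusted p = 0.00376). Mfsd2a, a transporter of lysophospholipids, had an interaction of 3.46 (adjusted p = 0.0427) that passed in 17 of 33 alternative settings, and its KnockOut effect was 0.69 on slide 5 and 4.02 on slide 6.

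The largest negative interactions, by the same rule, began at -4.94, and 9 genes are given. Ptgs1, the cyclooxygenase of constitutive prostaglandin synthesis, had levels of 3.22, 2.83, 2.23 and 1.42 in cold KnockOut arrays, against -0.54, -0.08, -0.17 and -0.33 in cold control arrays. At room temperature Ptgs1 had levels of 5.61, 5.33, 5.25 and 5.05 in KnockOut arrays, against -0.88, -0.73, -0.63 and -0.77 in control arrays. KnockOut arrays were higher without overlap at both temperatures, and the rise was smaller in the cold, 2.71 ± 0.28 against 6.06 ± 0.28 at room temperature (interaction -3.36, adjusted p = 0.000251). Ptger3, a receptor for prostaglandin E, fell by 1.15 in the cold and rose by 1.51 at room temperature, for an interaction of -2.66 (adjusted p = 0.0046).

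Flrt1, a leucine-rich transmembrane protein that binds fibroblast growth factor receptors, had levels of -3.27, -1.59, -1.90 and -1.86 in cold KnockOut arrays, against 1.14, 2.84, 1.41 and 1.05 in cold control arrays. At room temperature Flrt1 had levels of -1.30, -1.94, -2.20 and -2.58 in KnockOut arrays, against -2.18, -2.61, -3.60 and -4.35 in control arrays. The cold control arrays stood above the other 12, of which 1 room-temperature control array was not well above background, and the interaction was -4.94 ± 0.73 (adjusted p = 0.00104). Aldoc, a fructose-bisphosphate aldolase, had levels of 0.18, -0.10, -0.80 and -1.07 in cold KnockOut arrays, against 1.01, 0.38, 1.04 and 0.98 in cold control arrays. Aldoc at room temperature had levels of 0.56, 0.23, 0.37 and 0.36 in KnockOut arrays, against -1.45, -1.07, -1.47 and -1.03 in control arrays. Its order turned without overlap at either temperature (-1.30 in the cold, 1.64 at room temperature; interaction -2.94, adjusted p = 0.000232).

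Nap1l5, an imprinted member of the nucleosome assembly family, had a KnockOut effect of -0.19 in the cold, which did not pass, and of 2.98 at room temperature, which did (interaction -3.17, adjusted p = 0.000251). Sult5a1, a cytosolic sulfotransferase, rose in KnockOut arrays at both temperatures, by 1.73 in the cold and 4.52 at room temperature (interaction -2.78, adjusted p = 0.011). Gm128 had an effect of 0.66 in the cold that did not pass, and rose by 3.49 at room temperature (interaction -2.82, adjusted p = 0.00721). Maff, a small MAF transcription factor, had an interaction of -3.07 (adjusted p = 0.0251), and Fbp2, the muscle form of fructose-bisphosphatase, one of -2.89 (adjusted p = 0.0438). The Fbp2 interaction passed in 18 of 33 alternative settings, and its cold effect was 0.65 on slide 5 and -2.23 on slide 6.

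**Figure D2:**
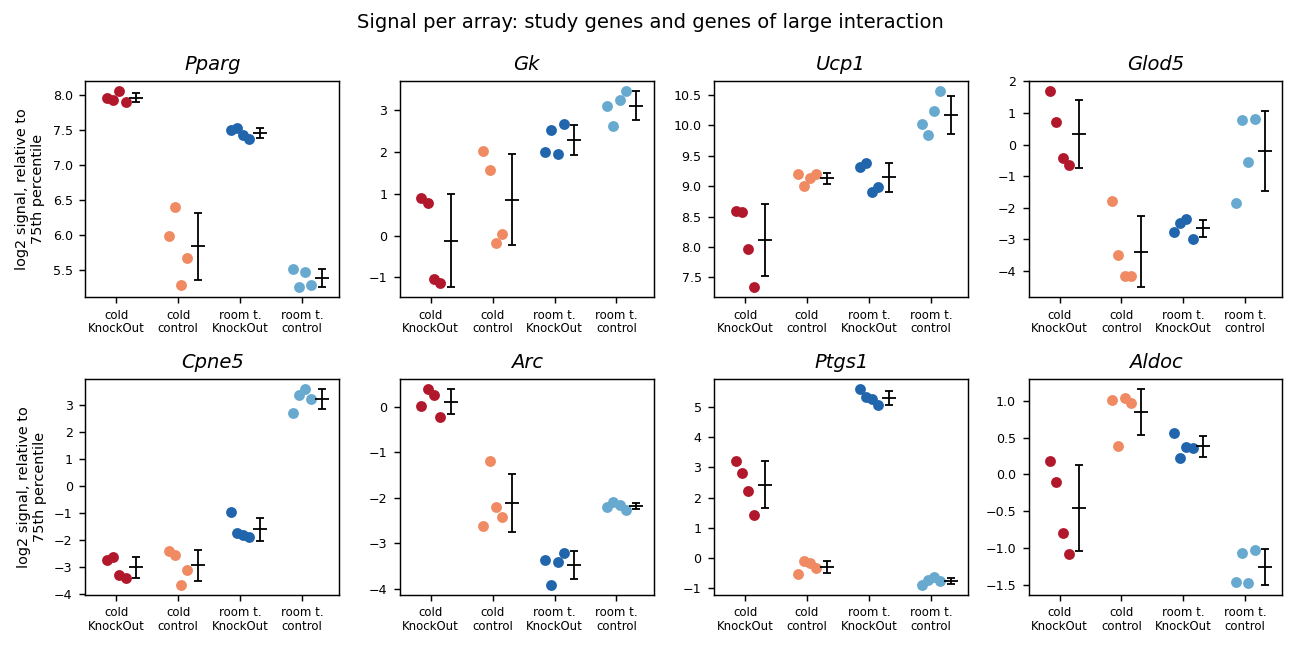
Levels (log2 signal minus the array's 75th percentile) of Pparg, Gk, Ucp1, Glod5, Cpne5, Arc, Ptgs1 and Aldoc on each of the 16 arrays; points are arrays, the mark beside them is the group mean with its SD, and the groups run from cold KnockOut and cold control to room-temperature KnockOut and room-temperature control. For Glod5, Arc and Aldoc the order of KnockOut and control turned between temperatures without overlap, while for Pparg and Ucp1 it was the same at both.

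A further 7.73% of the 1875 genes, 96 higher and 49 lower, were not well above background on any array of at least 1 group, so no size is given for their interaction. Clic6, of the chloride intracellular channel family, was well above background on all 4 cold KnockOut arrays and on none of the other 12, and was at least 29.9-fold higher in cold KnockOut arrays than in cold control arrays. It entered the test only through the cold KnockOut group, in which it was high, so its p-value is not given. Such a fold sets the bright group's mean against the higher of the dim probe's own signal and the lowest signal well above background on each array. Dynlrb2, a dynein light chain, was well above background on 4 cold KnockOut arrays, 1 cold control array, 1 room-temperature KnockOut array and 0 room-temperature control arrays. The transcript 2210409D07Rik, well above background on 3 of 4 cold KnockOut arrays, was at least 1.70-fold higher in cold KnockOut arrays than in cold control arrays (adjusted p = 0.032). At room temperature it was at least 8.63-fold lower in KnockOut arrays than in control arrays. Without the room-temperature control group, in which it was high, its probe would not have been tested, so no p-value is given for that fall. Slc22a3, an organic cation transporter, was not well above background on any cold array and was so on 4 room-temperature KnockOut arrays and 2 room-temperature control arrays. Car12, a carbonic anhydrase, was not well above background on any room-temperature array and was so on all 8 cold arrays, where its KnockOut effect was -3.36 (adjusted p = 0.00046). Spata25 was at least 1.82-fold lower in cold KnockOut arrays than in cold control arrays, and its interaction turned to 0.18 under normexp background correction. Without the cold control group, in which it was high, the Spata25 probe would not have been tested, so no p-value is given.

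The cholesterol synthesis genes moved one way. Of 22 tested genes, 16 passed for a lower interaction and 0 for a higher one, against 7.2% and 6.13% of all genes, and all 22 interactions were negative. The median interaction was -1.53, against -0.007 over all genes. In the cold, 18 of 22 fell in KnockOut arrays (background 22.3%) and 0 rose (16%), with a median effect of -1.0. At room temperature 7 of 22 rose (15.1%) and 0 fell (19.7%), with a median of 0.51. The count of 16 was 11 under normexp, 7 on cold slide 5 alone, 17 on cold slide 6 alone and 12 to 19 when 1 array was left out. The room-temperature median was 0.13 on slide 1 and 0.86 on slide 2, and the cold median -0.68 on slide 5 and -1.32 on slide 6.

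Insig1, which holds the sterol sensor in the endoplasmic reticulum, had levels of 1.01, 0.56, 1.32 and 1.43 in cold KnockOut arrays, against 2.25, 1.82, 3.21 and 3.53 in cold control arrays. At room temperature Insig1 had levels of 2.76, 2.11, 1.84 and 2.25 in KnockOut arrays, against 2.03, 1.78, 1.48 and 1.36 in control arrays. The cold groups did not overlap and the room-temperature groups did, and the interaction was -2.19 (adjusted p = 0.00956). Idi1, which interconverts the isoprene units, had levels of 1.35, 1.18, 1.56 and 1.58 in cold KnockOut arrays, against 2.23, 1.39, 2.53 and 3.13 in cold control arrays. At room temperature its levels were 3.80, 3.32, 3.23 and 3.19 in KnockOut arrays, against 2.51, 2.0, 1.82 and 1.37 in control arrays. The Idi1 groups overlapped in the cold (-0.90) and were apart without overlap at room temperature (1.46), for an interaction of -2.36 (adjusted p = 0.00416). Sqle, the squalene epoxidase, Lss, the lanosterol synthase, and Pmvk, a kinase of the mevalonate pathway, fell in cold KnockOut arrays by 1.39, 1.78 and 1.56, with interactions of -2.23, -1.87 and -1.54 (adjusted p = 0.0117, 0.0117 and 0.0207).

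Cholesterol genes are textbook targets of SREBP transcription factors, which bind sterol response elements and act with factors at CCAAT boxes. Promoters, the 250 bases before and 50 after the start of the gene, were taken from RefSeq (build GRCm38.p6) for the 16 of 22 genes with an entry. The letters CCAAT, searched on both strands, were in 16 of 16 (100%), against 41.1% of 27025 genes with an entry, and were also in 13 of 15 promoters of circadian clock genes (86.7%). The sterol response element core TCACNCCAC was in 1 of 16 (6.25%), the Hmgcs1 promoter, against 1.44%. The E-box CACGTG, searched on both strands, was in 4 of 16 (25%), against 8.09%. These motifs were chosen after the matches of 12 motifs had been seen, and a match is a description of letters, not a binding site. The Hmgcs1 promoter (chr13:119690101-119690400, plus strand) is shown for its core and its 4 CCAAT boxes, which read ATTGG on this strand. The Insig1 promoter (chr5:28071162-28071461, plus strand) is shown for its CCAAT box and E-box. Capitals mark the matches, which share no bases.
Hmgcs1: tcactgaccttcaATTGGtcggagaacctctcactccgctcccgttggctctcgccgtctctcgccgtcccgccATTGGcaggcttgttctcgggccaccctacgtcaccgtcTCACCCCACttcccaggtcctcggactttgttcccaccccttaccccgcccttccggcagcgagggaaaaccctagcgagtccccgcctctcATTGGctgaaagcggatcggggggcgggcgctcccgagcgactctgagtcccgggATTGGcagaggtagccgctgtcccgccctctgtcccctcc
Insig1: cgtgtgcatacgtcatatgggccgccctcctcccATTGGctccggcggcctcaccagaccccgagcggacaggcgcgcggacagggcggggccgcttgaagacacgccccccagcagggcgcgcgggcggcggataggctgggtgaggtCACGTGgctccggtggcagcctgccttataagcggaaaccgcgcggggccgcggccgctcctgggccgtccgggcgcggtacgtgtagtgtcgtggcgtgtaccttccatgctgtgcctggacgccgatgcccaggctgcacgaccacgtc
Hmgcs1, the cytosolic synthase that feeds the mevalonate pathway, had an interaction of -0.80 ± 0.21 (adjusted p = 0.0232).

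De novo lipogenesis followed in sign, with 16 of 16 interactions negative and a median of -0.90. Of these genes 3 passed, all lower, against 7.2% of all genes. The count of 3 was 0 on cold slide 5 alone, 9 on cold slide 6 alone and 2 to 8 when 1 array was left out (limma in each). Fasn, the fatty acid synthase, had levels of 4.72, 4.60, 4.33 and 4.89 in cold KnockOut arrays, against 6.63, 5.73, 6.82 and 7.13 in cold control arrays. At room temperature Fasn had levels of 5.95, 5.10, 5.03 and 5.20 in KnockOut arrays, against 5.71, 5.69, 5.45 and 4.33 in control arrays. It was lower in the cold without overlap (-1.94) and overlapped at room temperature (0.02), for an interaction of -1.96 (adjusted p = 0.0161). Scd1, the stearoyl-CoA desaturase, had an interaction of -1.56 (adjusted p = 0.0299) and Thrsp, a lipogenic regulator, of -0.95 (adjusted p = 0.0217). In the cold 6 of 16 lipogenic genes fell and 0 rose, against 22.3% and 16% of all genes. At room temperature 0 passed by limma in either direction, against 19.7% lower and 15.1% higher among all genes.

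Of 18 lipases and their regulators, 5 passed lower and 2 higher, against 7.2% and 6.13% of all genes (median interaction -0.45). Lipe, the hormone-sensitive lipase, had levels of 1.97, 1.82, 1.15 and 2.10 in cold KnockOut arrays, against 3.93, 3.79, 4.17 and 4.10 in cold control arrays. At room temperature Lipe had levels of 1.47, 1.45, 1.07 and 0.99 in KnockOut arrays, against 2.09, 2.40, 2.33 and 2.14 in control arrays. Its fall in KnockOut arrays was larger in the cold (-2.24) than at room temperature (-0.99), without overlap at either, and the interaction was -1.24 (adjusted p = 0.0089). Pnpla3, a lipid droplet hydrolase, had an interaction of -1.90 and Ces1f, a carboxylesterase, of -1.38 (adjusted p = 0.0139 and 0.0108). Lpl, which frees fatty acids from lipoproteins, and Gpihbp1, its endothelial anchor, had positive interactions of 0.94 and 1.08 (adjusted p = 0.048 and 0.0158).

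Of 15 lipid droplet genes 3 passed, all lower, against 7.2% of all genes (median -0.59). They were Plin2, a coat protein (-1.56), Bscl2, which encodes seipin (-1.13), and Hilpda, an inhibitor of adipose triglyceride lipase (-0.89). Plin2 and Hilpda were higher in KnockOut arrays without overlap at room temperature, and their groups overlapped in the cold. Bscl2 was lower in KnockOut arrays without overlap in the cold, and its groups overlapped at room temperature. Of 15 triglyceride synthesis genes 3 passed, all lower, against 7.2% of all genes (median -0.24): Mogat2 (-2.16), Agpat3 (-0.99) and Lpin3 (-0.79). Lpin3 was higher in KnockOut arrays without overlap at both temperatures. Mogat2, a monoacylglycerol acyltransferase that was well above background on 2 of 4 room-temperature control arrays, rose in KnockOut arrays at both temperatures, by 2.74 in the cold and 4.90 at room temperature. Cidec, which fuses lipid droplets, and Agpat2, an acyltransferase, fell at both temperatures, by 2.24 and 2.71 in the cold and by 1.60 and 2.68 at room temperature, and did not pass for the interaction (adjusted p = 0.206 and 0.974). Of 18 genes of fatty acid uptake and activation 6 passed lower and 2 higher, against 7.2% and 6.13% of all genes (median -0.13). The higher ones were Slc27a2, an acyl-CoA synthetase of very long chains (2.05), and Acss1, the mitochondrial acetyl-CoA synthetase (1.82), both with a larger fall at room temperature, while Acss2, the cytosolic form, was lower (-1.69, adjusted p = 0.0444).

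Among 36 known PPARG targets, 9 passed lower and 1 higher for the interaction, against 7.2% and 6.13% of all genes (median -0.45). The count of 9 was 3 on cold slide 5 alone, 15 on cold slide 6 alone and 6 to 12 when 1 array was left out. In the cold 24 of 36 fell and 3 rose, against 22.3% and 16% (median -0.96). At room temperature 15 fell and 9 rose, against 19.7% and 15.1% (median -0.45). Aqp7, the glycerol channel, Gpd1, which makes glycerol phosphate, and Pck1, of glyceroneogenesis, fell at both temperatures, by 1.82, 1.31 and 2.83 in the cold and by 1.95, 1.69 and 3.77 at room temperature. Their interactions of 0.13, 0.38 and 0.94 did not pass (adjusted p = 0.647, 0.214 and 0.293). Adipoq, the adiponectin gene, fell by 1.99 in the cold and 1.68 at room temperature, and its interaction of -0.31 did not pass. Cebpa, a transcription factor that acts with PPARG in adipocytes, fell in the cold (-1.60), and its interaction was -1.11 (adjusted p = 0.0281). Of 22 adipogenic transcription factors 2 passed higher and 2 lower. The higher ones were Rxrg, a partner receptor (0.89), and Esrrg, an orphan receptor of mitochondrial genes (0.79). Klf15 was the other lower one; it was not well above background on any cold array, so no size is given. Of 11 glycerol genes, Pcx, which carboxylates pyruvate, passed lower (-1.38, adjusted p = 0.000759) and Slc37a1, a sugar-phosphate exchanger, higher (1.28).

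Of 23 genes of mitochondrial fatty acid oxidation 4 passed lower and 0 higher for the interaction, against 7.2% and 6.13% of all genes (median -0.51). The count of 4 was 1 on cold slide 5 alone, 12 on cold slide 6 alone and 4 to 10 when 1 array was left out. In cold KnockOut arrays 21 of 23 fell, against 22.3% of all genes, and 1 rose, against 16%, with a median of -0.94. At room temperature 12 fell, against 19.7%, and 1 rose, against 15.1%, with a median of -0.45. Hadha, the alpha subunit of the trifunctional protein, had levels of 4.95, 4.63, 3.73 and 3.84 in cold KnockOut arrays, against 6.17, 5.65, 5.80 and 5.86 in cold control arrays. At room temperature Hadha had levels of 4.23, 4.19, 4.01 and 4.21 in KnockOut arrays, against 4.27, 4.31, 4.23 and 4.50 in control arrays. It fell without overlap in the cold (-1.58), against -0.17 at room temperature (interaction -1.41, adjusted p = 0.0108). Hadhb, its beta subunit, and Acads, the short-chain dehydrogenase, had interactions of -0.99 and -0.92 (adjusted p = 0.0124 and 0.0171).

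Of 26 peroxisomal genes 4 passed lower and 2 higher for the interaction (median -0.14). In cold KnockOut arrays 21 fell (all genes 22.3%) and 0 rose (16%), with a median of -0.80, and at room temperature 18 fell (19.7%) and 5 rose (15.1%), with a median of -0.75. Ech1, an enoyl-CoA isomerase of mitochondria and peroxisomes, fell by 0.36 in the cold and rose by 0.53 at room temperature (interaction -0.89, adjusted p = 0.00798). Acot8, a peroxisomal acyl-CoA thioesterase, fell by 0.60 in the cold and 1.47 at room temperature (interaction 0.87, adjusted p = 0.015). Abcd2, a peroxisomal fatty acyl transporter, was well above background on 1 of 4 room-temperature control arrays and on all 12 others. It passed lower for the interaction, and with 3 of the 4 room-temperature control arrays at background no size is given.

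**Figure D3:**
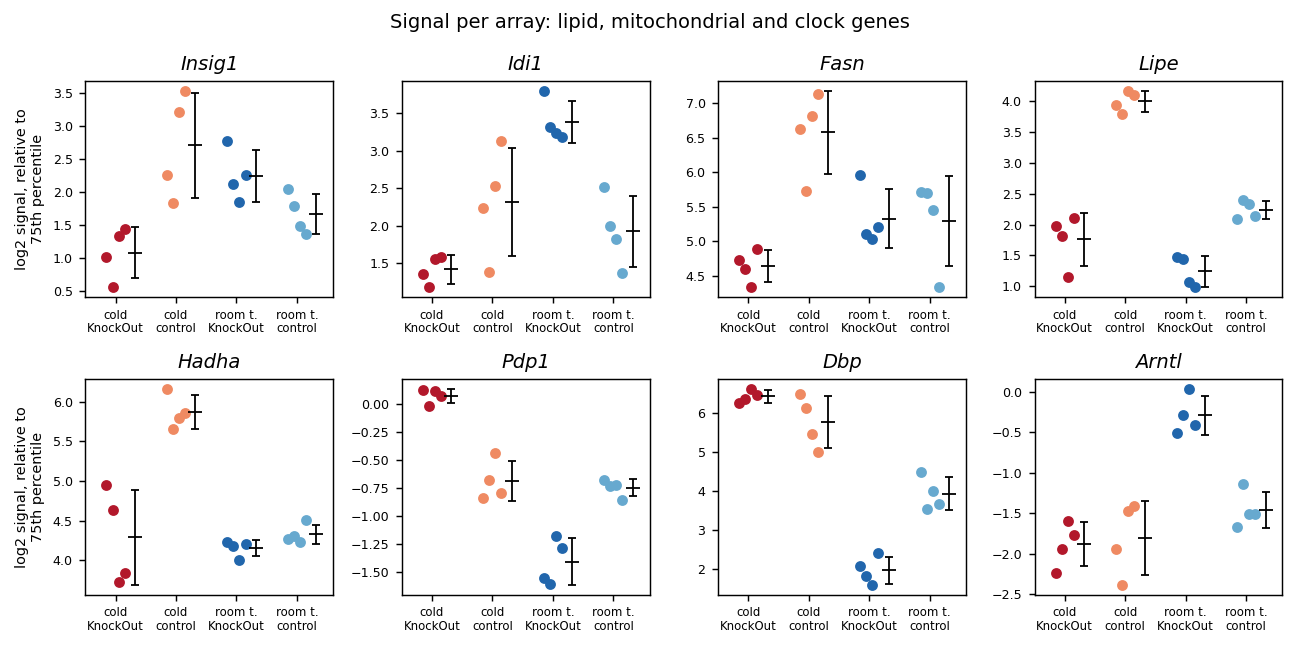
Levels (log2 signal minus the array's 75th percentile) of Insig1, Idi1, Fasn, Lipe, Hadha, Pdp1, Dbp and Arntl on each of the 16 arrays, in the order cold KnockOut, cold control, room-temperature KnockOut and room-temperature control; points are arrays, with the group mean and SD beside them. Idi1 was lower in KnockOut arrays in the cold and higher at room temperature, Pdp1 was higher in the cold and lower at room temperature, and Lipe was lower at both.

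Of 38 nuclear subunits of the respiratory chain and ATP synthase, 2 passed higher and 5 lower, against 6.13% and 7.2% of all genes. The median interaction was -0.03, and the median KnockOut effect was -0.43 in the cold and -0.48 at room temperature. Atp5g1, which encodes subunit c of ATP synthase, had levels of 4.03, 3.68, 4.0 and 4.39 in cold KnockOut arrays, against 3.73, 3.79, 2.90 and 3.20 in cold control arrays. At room temperature Atp5g1 had levels of 4.84, 4.63, 4.65 and 4.53 in KnockOut arrays, against 2.09, 2.16, 2.03 and 2.20 in control arrays. It rose by 0.62 in the cold with overlap and by 2.54 at room temperature without overlap (interaction -1.92, adjusted p = 0.000649). Of 26 genes of the TCA cycle and pyruvate dehydrogenase 5 passed lower and 1 higher, against 7.2% and 6.13% of all genes (median -0.26). The count of 5 lower was 1 on cold slide 5 alone, 8 on cold slide 6 alone and 2 to 6 when 1 array was left out. The higher one, Pdp1, a pyruvate dehydrogenase phosphatase, had levels of 0.12, -0.02, 0.11 and 0.07 in cold KnockOut arrays, against -0.84, -0.67, -0.44 and -0.80 in cold control arrays. At room temperature Pdp1 had levels of -1.55, -1.60, -1.17 and -1.28 in KnockOut arrays, against -0.67, -0.73, -0.72 and -0.85 in control arrays, so its order turned without overlap (interaction 1.42, adjusted p = 0.000212). Sdha, a subunit of succinate dehydrogenase, had an interaction of -0.93 (adjusted p = 0.00385). Of 40 mitochondrial ribosomal proteins 1 passed, Mrpl18 (-0.70). In KnockOut arrays 37 of the 40 fell in the cold, against 22.3% of all genes, and 28 fell at room temperature, against 19.7%.

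Of 22 genes of branched-chain amino acid breakdown 6 passed lower and 2 higher, against 7.2% and 6.13% of all genes (median -0.23). Mccc1, a subunit of methylcrotonyl-CoA carboxylase, rose in KnockOut arrays by 0.77 in the cold and 1.83 at room temperature (interaction -1.05, adjusted p = 0.00586). Bckdhb, a subunit of the branched-chain dehydrogenase, fell by 1.09 in the cold and 1.82 at room temperature (interaction 0.73, adjusted p = 0.027). Of 32 genes of glucose uptake, glycogen and glycolysis 2 passed, both lower: Aldoc, given above, and Pygb, a glycogen phosphorylase (-1.75, adjusted p = 0.000703).

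The thermogenic list, the genes typical of brown adipocytes, had 20 members tested. In KnockOut arrays 9 were lower and 3 higher in the cold, against 22.3% and 16% of all genes (median -0.59), and 13 were lower and 2 higher at room temperature, against 19.7% and 15.1% (median -0.85), and for the interaction 2 passed, both higher (median 0.14, or -0.02 with median scaling). They were Slc27a2, given above, and Cox7a1, a cytochrome oxidase subunit of heart, muscle and brown fat (0.63, adjusted p = 0.0213). Otop1, a proton channel enriched in brown fat, fell by 4.07 in the cold and 4.10 at room temperature, with an interaction of 0.04 (adjusted p = 0.932). Cox8b, another cytochrome oxidase subunit, fell by 1.23 and 1.31, with an interaction of 0.07 (adjusted p = 0.868). Of 24 adrenergic and cyclic AMP genes 1 passed higher, Gnas, the stimulatory G protein (0.98, adjusted p = 0.00827), and 2 lower, Gnai1, an inhibitory G protein (-1.05), and Prkar1a, a regulatory subunit of protein kinase A (-0.52), whose other probe gave 0.15 (adjusted p = 0.73).

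Of 15 genes of creatine and calcium cycling 4 passed higher and 1 lower. Alpl, the tissue-nonspecific alkaline phosphatase, had levels of -3.97, -3.51, -3.71 and -4.29 in cold KnockOut arrays, against -3.95, -4.02, -3.75 and -3.89 in cold control arrays. At room temperature Alpl had levels of 0.18, 0.39, 0.05 and 0.42 in KnockOut arrays, against 2.66, 2.82, 2.69 and 2.88 in control arrays. The cold groups overlapped far below the room-temperature groups, with cold-minus-room differences of -4.13 in KnockOut and -6.67 in control arrays, so the interaction of 2.54 (adjusted p = 1.13e-05) rests on the room-temperature effect of -2.50. Gamt, the last enzyme of creatine synthesis, had levels of 4.17, 4.63, 4.01 and 4.31 in cold KnockOut arrays, against 1.32, 0.81, 0.86 and 1.36 in cold control arrays. At room temperature Gamt had levels of 1.80, 0.76, 0.55 and 1.18 in KnockOut arrays, against -0.19, -0.10, -0.10 and 0.17 in control arrays. KnockOut arrays were higher without overlap at both temperatures, and by more in the cold (3.19 against 1.13; interaction 2.07, adjusted p = 0.00174). Slc6a8, the creatine transporter, was the lower one (-0.90), and Atp2a2, the calcium pump of the endoplasmic reticulum, was higher (0.87, adjusted p = 0.0449). The Atp2a2 interaction passed in 13 of 33 alternative settings, and its other probe gave 0.66 (adjusted p = 0.15).

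All 31 proteasome subunits fell in cold KnockOut arrays, against 22.3% of all genes, with a median of -0.75, and 10 fell at room temperature, against 19.7%, with a median of -0.20. The interaction was negative for all 31 (median -0.46, range -1.0 to -0.09) and passed for 10, all lower, against 7.2% of all genes. Psmd13, of the regulatory particle, had levels of 3.29, 3.1, 2.57 and 2.92 in cold KnockOut arrays, against 3.69, 3.81, 3.65 and 3.85 in cold control arrays. At room temperature Psmd13 had levels of 3.35, 3.08, 3.0 and 3.15 in KnockOut arrays, against 3.04, 3.08, 3.03 and 2.98 in control arrays. The cold groups did not overlap and the room-temperature groups did (interaction -0.90, adjusted p = 0.00786). The count of 10 was 1 on cold slide 5 alone, 17 on cold slide 6 alone, 3 under normexp and 6 to 15 when 1 array was left out. Of 22 heat shock and oxidative stress genes, Bag3, a co-chaperone, passed higher (1.14), and Gpx1, a glutathione peroxidase (-1.01), and Hsph1, a large heat shock protein (-0.88), passed lower. Of 25 genes of the unfolded protein and integrated stress responses 2 passed, both lower: Sesn2 (-1.37) and Creld2 (-0.64).

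Of 18 circadian clock genes 5 passed higher and 2 lower, against 6.13% and 7.2% of all genes. Dbp, an output transcription factor of the clock, had levels of 6.25, 6.35, 6.63 and 6.47 in cold KnockOut arrays, against 6.49, 6.12, 5.47 and 5.0 in cold control arrays. At room temperature Dbp had levels of 2.07, 1.80, 1.58 and 2.39 in KnockOut arrays, against 4.48, 3.52, 4.01 and 3.67 in control arrays. The cold groups overlapped (0.66, adjusted p = 0.089), while at room temperature it fell without overlap (-1.96), for an interaction of 2.62 (adjusted p = 0.0016). Nr1d2, a nuclear receptor of the repressive arm, and Per3, a period gene that was well above background on 2 of 4 room-temperature KnockOut arrays, had effects of 0.33 and 0.85 in the cold, fell by 2.05 and 1.62 at room temperature, and had interactions of 2.38 and 2.47 (adjusted p = 0.000515 and 0.002). Arntl, which encodes BMAL1 of the activating arm, had levels of -2.24, -1.94, -1.60 and -1.77 in cold KnockOut arrays, against -1.95, -2.39, -1.48 and -1.41 in cold control arrays. At room temperature Arntl had levels of -0.52, -0.29, 0.04 and -0.41 in KnockOut arrays, against -1.67, -1.14, -1.51 and -1.51 in control arrays. It rose at room temperature without overlap (1.16), the opposite direction to Dbp, and its interaction was -1.24 (adjusted p = 0.0161). Clock, its partner, also passed lower (-0.77, adjusted p = 0.0133). The labels give no time of day, and its part in these values was not tested. The cold effect on Dbp was -0.01 on slide 5 and 1.32 on slide 6.

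The D-box TTATGTAA, the letters bound by DBP and its relatives, was in the promoter of 1 of 15 clock genes with an entry (6.67%), that of Per3, against 1.11% of all genes, searched on both strands. The Per3 promoter (chr4:151044616-151044915, minus strand, GRCm38.p6) holds it at 2 places, in capitals.
Per3: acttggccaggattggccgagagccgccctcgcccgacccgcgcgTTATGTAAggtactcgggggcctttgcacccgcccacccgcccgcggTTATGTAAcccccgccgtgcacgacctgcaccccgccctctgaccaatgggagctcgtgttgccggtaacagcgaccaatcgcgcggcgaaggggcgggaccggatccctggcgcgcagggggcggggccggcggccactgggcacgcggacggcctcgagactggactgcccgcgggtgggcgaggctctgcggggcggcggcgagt
The E-box CACGTG was in 5 of 15 clock promoters (33.3%), those of Bhlhe41, Ciart, Cry1, Per1 and Tef.

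Immediate-early genes, induced within minutes of a stimulus, had a median interaction of 1.37, and 18 of 19 were positive. Yet 3 passed, all higher, against 6.13% of all genes. Jun, a subunit of AP-1, had levels of 4.35, 4.20, 5.04 and 5.66 in cold KnockOut arrays, against 2.73, 4.17, 3.83 and 2.91 in cold control arrays. At room temperature Jun had levels of 2.54, 2.36, 3.04 and 3.19 in KnockOut arrays, against 3.16, 3.52, 4.27 and 3.38 in control arrays. The cold groups did not overlap, the room-temperature groups did, and the interaction was 2.21 (adjusted p = 0.0165). Myc, a growth-related transcription factor, passed at 1.95 (adjusted p = 0.0408), and Nr4a3, an orphan nuclear receptor that was not well above background on any room-temperature array, passed with no size given. The mean level of the list was -0.74, -0.02, 2.75 and 2.62 in cold KnockOut arrays, against -1.37, -1.17, 0.74 and 0.15 in cold control arrays. The slide 6 arrays, the last 2 of each group, were the high ones. On cold slide 5 alone 0 of the 19 passed by limma, and on cold slide 6 alone 13 did.

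Markers of other cell types also moved between groups. Of 19 endothelial markers 8 passed higher and 0 lower for the interaction, against 6.13% and 7.2% of all genes, with a median of 0.72. In KnockOut arrays 1 rose and 1 fell in the cold, against 16% and 22.3% of all genes (median 0.16). At room temperature 12 of 19 fell, against 19.7% of all genes (median -0.55). The mean level of the list was 1.67, 1.62, 1.76 and 1.60 in cold KnockOut arrays, against 1.31, 1.67, 1.52 and 1.48 in cold control arrays, which overlapped. At room temperature it was 1.12, 1.22, 1.27 and 1.36 in KnockOut arrays, against 1.60, 1.64, 2.0 and 2.0 in control arrays, without overlap. Esam, an endothelial adhesion molecule, had an interaction of 1.34 (adjusted p = 0.00366) and Cdh5, the vascular cadherin, of 1.03 (adjusted p = 0.0151). For Esam both cold groups lay far below both room-temperature groups, at -2.81 to -1.32 against 1.58 to 2.59. Cdh5 lay at 0.77 to 1.79 in the cold and 1.32 to 2.43 at room temperature. The count of 8 was 2 with median scaling, 1 under normexp, 1 on cold slide 5 alone and 3 to 11 when 1 array was left out. Red blood cell genes, of which 1 of 9 passed, the alpha-globin gene Hba-a2 (1.13), whose probe may also read its near-identical copy, had a median interaction of 1.13, a cold median of 0.22 and a room-temperature median of -0.91.

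Of 18 preadipocyte and fibroblast markers 4 passed higher and 0 lower, all 18 interactions were positive and the median was 0.75. In the cold 12 of 18 rose in KnockOut arrays, against 16% of all genes. Cd34, a surface marker of stromal and endothelial cells, had levels of 3.56, 3.80, 4.42 and 4.45 in cold KnockOut arrays, against 2.77, 3.04, 3.47 and 3.44 in cold control arrays. At room temperature Cd34 had levels of 2.87, 2.94, 2.73 and 3.52 in KnockOut arrays, against 3.13, 3.49, 3.49 and 3.5 in control arrays. The cold groups did not overlap and the room-temperature groups did (interaction 1.26, adjusted p = 0.0216). Mfap5 and Fbn1, of elastic fibres, also passed (1.26 and 1.16, adjusted p = 0.0102 and 0.0423). The count of 4 was 1 with median scaling and 0 under normexp and on cold slide 5 alone (limma in each). Of 35 collagen and matrix genes 5 passed higher and 2 lower, against 6.13% and 7.2% of all genes (median 0.72). The count of 5 was 1 with median scaling, 1 under normexp and 2 to 9 when 1 array was left out. Col1a1 and Col3a1, the main fibrillar collagens, rose in the cold by 1.05 and 1.18 and had interactions of 1.12 and 1.09 (adjusted p = 0.031 and 0.0343). These 2 interactions passed in 19 and 17 of 33 alternative settings. Lox, which crosslinks collagen, was lower (-1.25, adjusted p = 0.0387).

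Of 22 macrophage markers 17 rose in cold KnockOut arrays, against 16% of all genes, and 4 at room temperature, a share near the 15.1% of all genes. For the interaction 1 passed higher and 2 lower, also near the shares of all genes, 6.13% and 7.2% (median 0.51). Itgam, an integrin of myeloid cells, was the higher one (1.16, adjusted p = 0.027), but its other 2 probes gave -0.36 and 0.63 (adjusted p = 0.79 and 0.18), so its probes disagree. The lower ones were Cd14, a lipopolysaccharide receptor, and Ccr2, a chemokine receptor. Ccr2 was not well above background on any cold array, so no size is given, and it passed in 16 of 32 alternative settings. Cd14 rose at both temperatures, by 1.11 in the cold and 1.90 at room temperature. Of 12 nerve and Schwann cell genes 2 passed higher and 1 lower. S100b, a calcium-binding protein of glia and adipocytes, had levels of 6.13, 6.05, 6.19 and 6.07 in cold KnockOut arrays, against 4.11, 3.88, 3.93 and 4.52 in cold control arrays. At room temperature S100b had levels of 5.17, 5.29, 5.22 and 5.05 in KnockOut arrays, against 4.94, 4.79, 4.66 and 4.54 in control arrays. It rose without overlap at both temperatures and by more in the cold, 2.0 against 0.45 (interaction 1.55, adjusted p = 0.000276). Of 13 lymphocyte and mast cell markers 1 passed, Nkg7, a granule protein of cytotoxic lymphocytes (0.98), whose second probe gave 0.19 (adjusted p = 0.90). The 2 Nkg7 probes also differed in sign at room temperature, with effects of -0.82 and 0.54. Of 7 epithelial markers 0 passed by limma, and of 12 white-adipose-enriched genes 1 passed, Mest.

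Skeletal muscle RNA was uneven between arrays. The mean level of 21 tested muscle markers was -3.30, -2.81, -3.48 and 0.05 in cold KnockOut arrays, against 2.86, 2.30, -3.90 and -2.04 in cold control arrays. At room temperature it was 0.08, -3.42, -3.59 and -3.44 in KnockOut arrays, against -3.52, -3.44, -3.79 and -3.43 in control arrays. The first 2 cold control arrays, both on slide 5, stood highest, and 1 array of each KnockOut group was also high. The median interaction was -3.0, and 0 of 21 passed by limma; on cold slide 5 alone 14 passed lower, and without cold controls 1 and 2 the median was -0.23. With the muscle mean as a covariate 1713 genes passed for the interaction, and without cold controls 1 and 2 2559 did. The cholesterol median was -1.53 with that covariate and -1.78 without those 2 arrays. Mb, which encodes myoglobin, differed from the rest of the list, with levels of 7.02, 7.54, 6.77 and 7.01 in cold KnockOut arrays, against 3.24, 3.54, -0.57 and -1.03 in cold control arrays. At room temperature Mb had levels of 6.82, 7.04, 6.59 and 6.19 in KnockOut arrays, against 2.07, -1.16, -1.46 and 0.68 in control arrays. It rose without overlap at both temperatures, by 5.79 in the cold and 6.63 at room temperature, with an interaction of -0.84 (95% interval -3.75 to 2.08; adjusted p = 0.724).

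**Figure D4:**
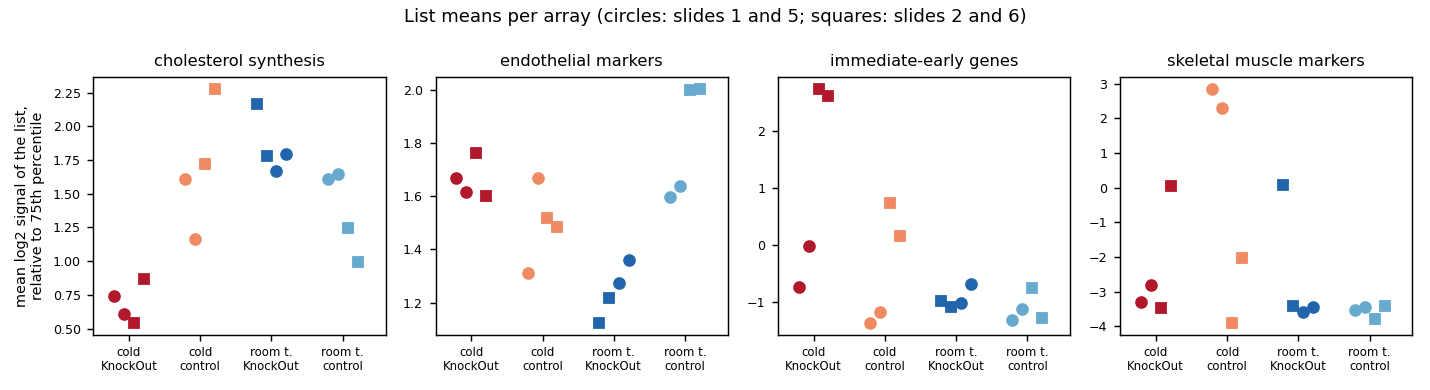
Mean level of the cholesterol synthesis, endothelial, immediate-early and skeletal muscle lists (log2 signal minus the array's 75th percentile) on each of the 16 arrays, grouped as cold KnockOut, cold control, room-temperature KnockOut and room-temperature control; circles are slides 1 and 5 and squares slides 2 and 6. The cholesterol mean was 0.54 to 0.86 in cold KnockOut arrays and 1.17 to 2.28 in cold control arrays, the immediate-early mean split by slide in the cold, and the muscle mean was highest on 2 cold control arrays.

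Of 18 acute-phase and antimicrobial genes 9 rose and 0 fell in cold KnockOut arrays, against 16% and 22.3% of all genes. At room temperature 11 rose and 1 fell, against 15.1% and 19.7%. The one that fell was Hp, which encodes haptoglobin (-0.74, adjusted p = 0.026). For the interaction 3 passed higher and 6 lower, against 6.13% and 7.2%. Lcn2, which encodes the siderophore-binding lipocalin, had levels of 1.09, 0.86, 0.37 and 0.68 in cold KnockOut arrays, against -1.11, -1.61, -2.09 and -1.72 in cold control arrays. At room temperature Lcn2 had levels of 1.66, 1.61, 1.54 and 2.85 in KnockOut arrays, against -1.87, -1.78, -2.32 and -2.14 in control arrays. It rose by less in the cold (2.39) than at room temperature (3.94), without overlap at either (interaction -1.55, adjusted p = 0.0205). Itih4, an inter-alpha-trypsin inhibitor chain, had levels of 2.40, 2.15, 2.61 and 2.14 in cold KnockOut arrays, against -0.41, 0.15, -0.60 and -1.09 in cold control arrays. At room temperature Itih4 had levels of -0.63, 0.29, 0.61 and 1.87 in KnockOut arrays, against 0.88, 1.47, 0.00 and 1.07 in control arrays, which overlapped (interaction 3.14, adjusted p = 0.00592). Of 25 interferon-response genes 0 passed by limma, with a median of 0.25, and 0 to 9 passed higher when 1 array was left out.

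Of 24 insulin and IGF signalling genes 2 passed higher and 2 lower, shares near the 6.13% and 7.2% of all genes. Irs3, an insulin receptor substrate of rodent adipocytes, had levels of -0.23, 0.23, 0.02 and 0.47 in cold KnockOut arrays, against 2.35, 2.0, 1.81 and 1.97 in cold control arrays. At room temperature Irs3 had levels of 0.08, -0.13, 0.06 and -0.68 in KnockOut arrays, against -0.62, -0.47, -0.09 and 0.04 in control arrays. The cold control arrays stood above the other 12, and the interaction was -2.02 (adjusted p = 0.000878). Akt2, a kinase of insulin signalling, was also lower (-0.63), and Grb10, an adaptor that restrains insulin signalling, and Igfbp5, an IGF-binding protein, were higher (1.20 and 1.0). Of 19 adipokines and secreted factors 1 passed lower, Apln, the apelin gene, which was well above background on 1 of 4 cold KnockOut arrays, so no size is given. Of 21 proliferation genes 5 passed higher and 0 lower, against 6.13% and 7.2% of all genes (median 0.96). Mki67, the Ki-67 antigen, was among them (1.91, adjusted p = 0.0237). The count of 5 was 1 to 10 when 1 array was left out, and 0 under normexp and on cold slide 5 alone (limma in each). Of 39 cytosolic ribosomal proteins 3 passed, all higher, a share near the 6.13% of all genes, with a median of 0.23. Their interactions were 0.80 for Rpl35, 0.56 for Rplp1 and 0.55 for Rps2. With median scaling 0 passed and the median was 0.07, and under normexp 0 passed and the median was 0.06 (limma in each).

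Of the named genes past the threshold for the interaction, 31 had another tested probe. For 15 of them another probe did not pass, among them Cd34 (0.83, adjusted p = 0.23), Lpl (0.79, adjusted p = 0.25), Mccc1 (-0.40, adjusted p = 0.34) and Rps2 (0.27, adjusted p = 0.28). Another probe had the opposite sign for 2, Itgam and Prkar1a.

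**Figure D5:**
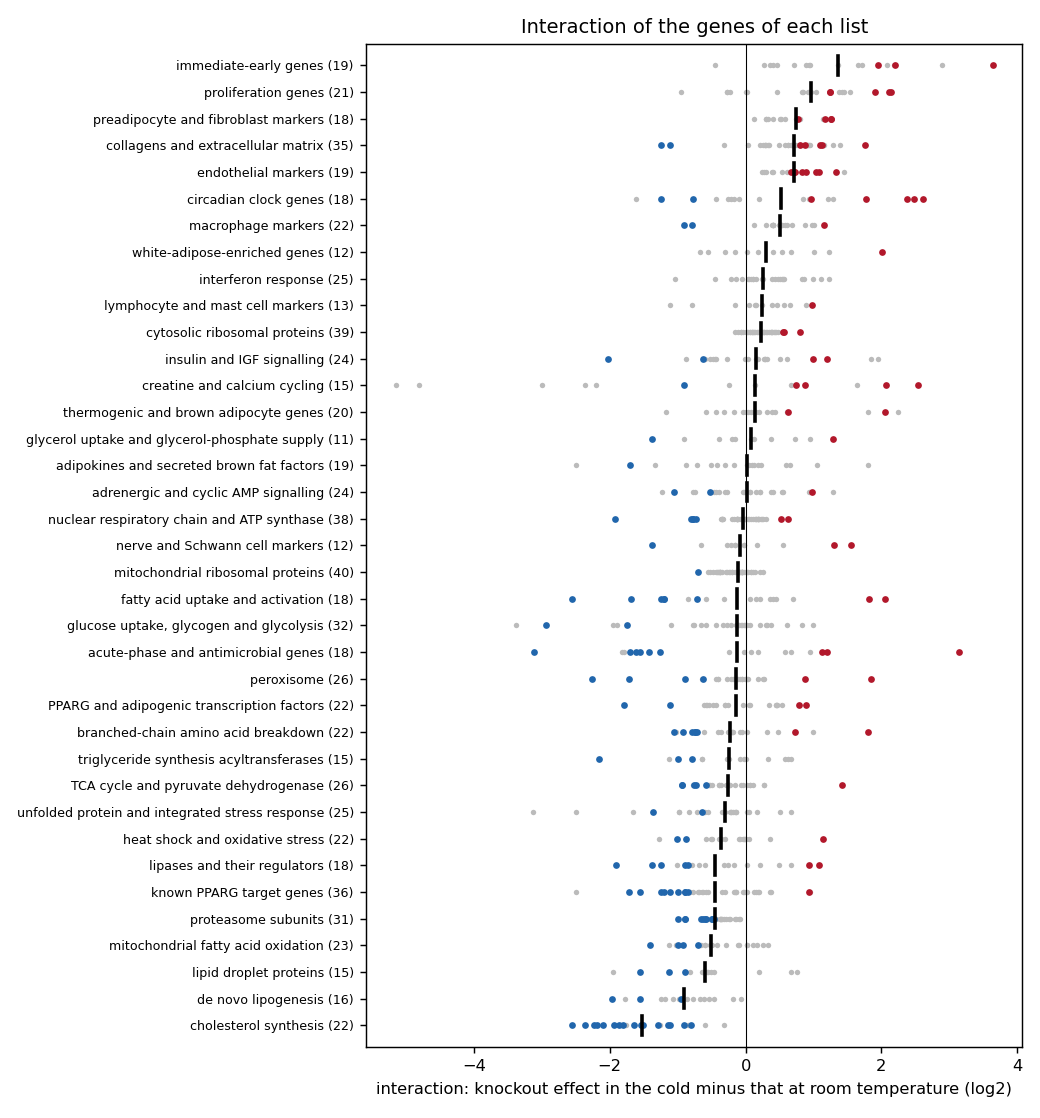
Interaction of every tested gene (horizontal axis, log2 units) in each gene list with at least 10 genes tested (vertical axis, number tested in brackets); each point is a gene, red where it passed higher, blue where it passed lower and grey where it did not pass, the black bar is the list's median, and the skeletal muscle list is left out. Cholesterol synthesis has the lowest median (-1.53) and immediate-early genes the highest (1.37) of the lists drawn.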

How the data were processed

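Total RNA from 16 in vivo samples was hybridised to one-colour Agilent arrays, per the labels' protocols. The deposited scanner files hold an intensity per spot, background-subtracted and spatially detrended by Agilent Feature Extraction 10.7.3.1, per the file headers, and the authors' deposited value table repeats that intensity. Nothing was normalised between arrays before deposit. Here control spots and spots with outlier flags were left out, spots of a probe were averaged, and log2 intensity minus each array's 75th percentile was used. A probe was tested when well above background on at least 4 of the 16 arrays, with 1 probe per gene, that of the highest mean over all 32 arrays. The files give an accession per probe, which was matched here to a RefSeq list of genes. Of 39429 probes, 27234 (69.1%) matched exactly 1 gene symbol and took that name.

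The 4 group means were fitted with limma 3.58.1 in R 4.3.3 (lmFit, eBayes), with no covariate, and adjusted over 14064 genes. The procedure was tested on simulated data. The number of arrays limits the precision. Genes named are the study's 3 (Pparg, Gk, Ucp1), the 10 of largest interaction in each direction, 3 dim genes in each direction, up to 3 past the threshold per list and direction, and those of largest KnockOut effect per list. Of these genes, 2 are not reported here. The promoters' genes and list members given with the motifs were chosen after their values were seen, as were genes given beyond that rule. The members of the 40 gene lists and the lists themselves were chosen with earlier results of these data known. Deviations of same-numbered samples correlated at -0.117 to -0.006 at room temperature. In the cold they correlated at 0.02 to 0.477, over 0.1 in 3 of 4 pairs. Same-numbered cold samples shared a slide, so number and slide cannot be told apart there. In the cold 6 of 8 same-slide pairs of KnockOut and control arrays were over 0.1, against 0 of 8 on different slides. The main fit has no slide term, and a slide block gave 2702 genes for the interaction. Alternatives covered scaling, background correction, filters, probe choice, variance model, slide and replicate blocks, and leaving out each array. Normexp used the median spot intensity and the median local background.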

Additional observations from a re-analysis of the deposited data

Results flagged for a closer look

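The KnockOut effect differed between cold and room temperature, by limma's test of the difference itself, for 1875 genes, and 19 of those with the largest interactions are repeated here with their interactions only. The positive ones were Glod5 (6.17), Scn4b (5.11), Cpne5 (4.74), Mal (4.42), Crhr2 (4.17), Ppp1r1b (3.65), Fgf18 (3.58), Arc (3.53), Usp2 (3.48) and Mfsd2a (3.46). The negative ones were Flrt1 (-4.94), Ptgs1 (-3.36), Nap1l5 (-3.17), Maff (-3.07), Aldoc (-2.94), Fbp2 (-2.89), Gm128 (-2.82), Sult5a1 (-2.78) and Ptger3 (-2.66).

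Single arrays stood apart from the other 3 of their group by Dixon's criterion in 13 of 252 groups of values, where chance gives about 1 in 20. For single genes these were Scn4b in room-temperature KnockOut array 2 (-0.11), Cpne5 in room-temperature KnockOut array 1 (-0.97), Crhr2 in room-temperature control array 3 (-3.05) and Aldoc in cold control array 2 (0.38). For list means, room-temperature KnockOut array 2 stood apart for thermogenic genes (3.96). Room-temperature KnockOut array 1 did so for creatine and calcium cycling (-0.37) and for skeletal muscle markers (0.075). Room-temperature KnockOut array 4 did so for the interferon response (1.22), and room-temperature control array 1 for clock genes (0.32). Cold control array 1 stood apart for lipases (3.88) and for the unfolded protein response (1.93). Cold KnockOut array 1 stood apart for heat shock genes (2.92) and cold KnockOut array 4 for white-adipose-enriched genes (0.57). The part of these arrays in the interactions was not tested beyond the leave-one-out counts.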

How the results depend on the processing

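The interaction passed for 1875 genes as reported. It passed for 600 under normexp background correction. Cold slide 5 alone gave 365 higher and 336 lower, against 862 and 1013 as reported, and cold slide 6 alone 1261 higher and 1828 lower. Leaving out 1 array gave 1227 (without room-temperature KnockOut array 1) to 2176 genes. All other settings, among them a slide block (2702), gave counts within 1.5 times of 1875. For the KnockOut effect in the cold, 5384 genes as reported, slide 5 alone gave 2900 and leaving out 1 array 4423 to 5533. For that at room temperature, 4902 genes as reported, normexp gave 2388 and leaving out 1 array 4072 to 5081. The replicate block gave 1751 genes within temperature and 1863 over both, and in the cold same-numbered arrays also shared a slide. The slide-alone settings, the muscle covariate and the removal of cold controls 1 and 2 were chosen after seeing the data. Normexp turned the interactions of Spata25 (0.18), Elovl3 (2.35), Ccr2 (0.026) and Grb14 (-1.36), and quantile normalisation that of Cox6a1 (-0.092); the cause was not tested. Of 143 named genes past the threshold, 42 passed in every alternative and 140 kept their sign in every one. Among genes given above, Esrrg passed in 12 of 33 alternatives, Atp2a2 and Fbn1 in 13, and Cd14, Lpl and Prkar1a in 14. Acss2 and Lox passed in 16 of 33. Of the 20 genes of largest interaction, 14 passed in every alternative and 20 kept their sign. Signal over background limits the 7.73% of these genes that are dim in at least 1 group.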
